A study of Homo sapiens with 3 samples.

Results

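Translation initiation factors were taken as every gene whose name starts with EIF and a family digit from 1 to 6, together with DENR, MCTS1, PAIP1, PABPC1 and PABPC4, provided that a transcript of the gene was listed in all 3 tables. This rule found 47 of the 8812 transcripts listed in all 3. PAIP1 and PABPC1 were not listed in all 3 and are not analysed here, nor are 11 further genes of the same families, among them the eIF2 kinases EIF2AK1, EIF2AK3 and EIF2AK4, the eIF2 subunit EIF2S2, the cap-binding protein EIF4E and the scaffold EIF4G2. Of the 47 members, 2 encode eIF2 subunits, 5 eIF2B subunits, 1 an eIF2 kinase, 12 eIF3 subunits, 6 the eIF4 proteins and 3 proteins that bind eIF4E. A further 4 act in start codon selection, 2 in subunit joining, 4 in alternative tRNA delivery or reinitiation and 1 in binding the poly(A) tail. The last 7 are 6 genes that carry an initiation factor name but are known for other roles or are copies of a member, and 1 that is counted here and not described singly.

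The study asked how aminoglycosides, drugs that bind the decoding center of the ribosome, alter the recognition of stop codons in human cells. Ribosome profiling was done on HEK293T cells, a human embryonic kidney line immortalised with adenovirus DNA and carrying SV40 large T antigen. The 2 control libraries, Untreated A and Untreated B, came from cells given 0 µg/mL of drug, and the third, G418 A, from cells given 500 µg/mL G418 over 24 hours, all of them the same unmodified line. The study calls its replicates biological, but the labels do not say whether A and B were separate cultures, so p-values measure only the spread between these libraries, and the lone G418 library is assumed by the model to vary like the untreated ones. An exact permutation test of 1 library against 2 cannot go below p = 0.333, so none is given for single values.

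Initiation on most human mRNAs begins when the cap-binding complex eIF4F, built from eIF4E, the scaffold eIF4G and the RNA helicase eIF4A, brings the mRNA to a small ribosomal subunit that already carries eIF3, eIF1, eIF1A, eIF5 and the ternary complex of eIF2, GTP and initiator tRNA. That assembly scans to a start codon, GTP is hydrolysed, and eIF5B then helps the large subunit to join. The eIF2 that leaves is recharged with GTP by its exchange factor eIF2B, a step that stress kinases block by phosphorylating the alpha subunit of eIF2, while hypophosphorylated eIF4E-binding proteins hold eIF4E away from eIF4G.

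The untreated libraries held 5857230 (A) and 9477972 (B) reads on transcripts, and the G418 library 7216039. Within each, 47 of 47 members were listed, and they took 1.94%, 1.85% and 1.83% of the reads on coding sequences (CDS) of the shared transcripts. All 6 of 6 genes fixed as marks of HEK293T cells were listed in every table, among them the filament genes VIM and NEFL. Of 10 genes that mark other cell types, 4 were listed in every table, with the epithelial gene EPCAM at 270.1 to 346 RPKM and the other 3 at 3.45 to 10.7 RPKM. The limit of 3 reads that a count of 0 allows stood for 0.512, 0.317 and 0.416 RPM, the reads scaled to a common library total, in the same order.

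Per length, ribosome density on the coding sequence of these factors spanned a 152-fold range in untreated cells. Density is given as RPKM, the RPM of the CDS divided by its length in kilobases. The highest value belonged to EIF5A, whose product carries hypusine and is best known for helping elongation and termination, with 2152, 2093 and 2341 RPKM (the untreated libraries A and B, then G418, an order kept for every such run of values). The helicase subunit EIF4A1 followed with 1358, 1369 and 1312 RPKM, and EIF1, which keeps the scanning subunit from starting at poor codons, with 1358, 1242 and 1128. The lowest were EIF4ENIF1, the nuclear shuttle of eIF4E, with 12.6, 15.3 and 14.5 RPKM, and EIF2D, a factor of noncanonical tRNA delivery and recycling, with 20.2, 19.0 and 29.1. Genes placed in this order outside the naming rule given under processing were picked after their values were seen. Of the 45 pairs of neighbours in the order of all 46 described members, 26 had untreated ranges that overlapped, so their order is not settled by 2 libraries.

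**Figure D1:**
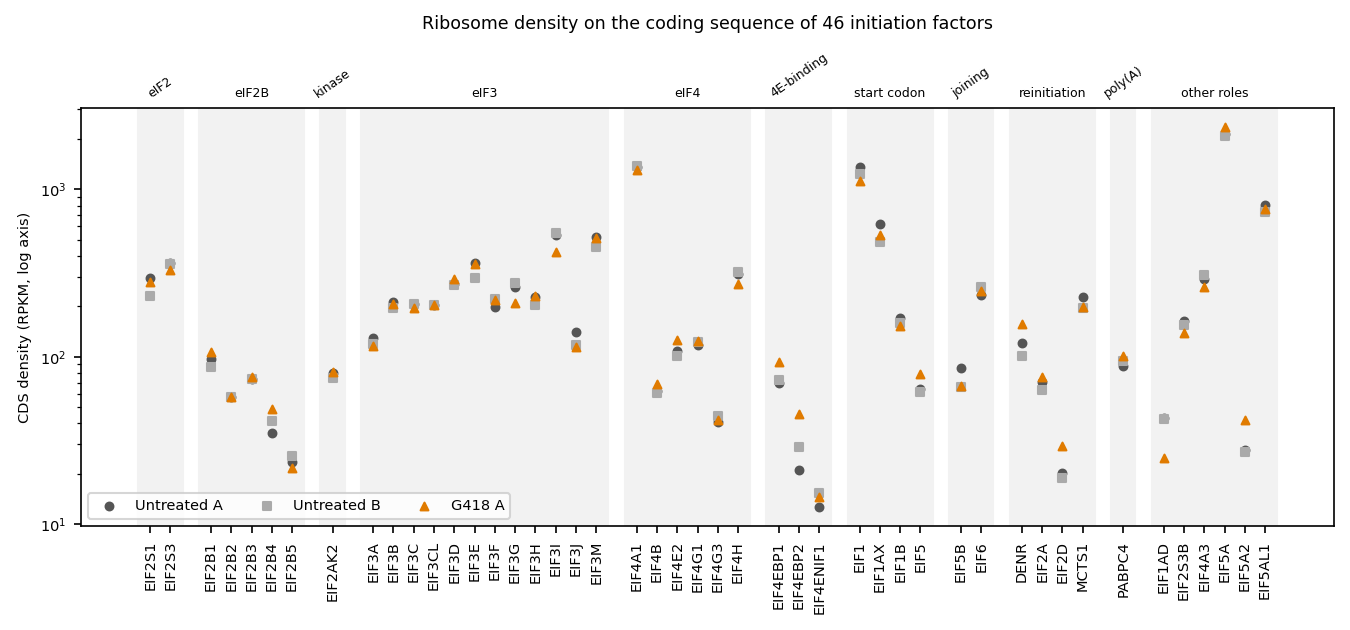
CDS density in RPKM on a log axis for the 46 described members, in shaded blocks by role, with 1 point for each of the 3 libraries (circles Untreated A, squares Untreated B, triangles G418 A). EIF5A, EIF4A1 and EIF1 stand above every other member in all 3 libraries, and within most members the 3 points lie close together.

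The subunits of eIF3, the scaffold that binds the small subunit and holds much of the scanning complex, differed 4.36-fold in density. EIF3I led with 541 ± 12.3 RPKM (SD, n = 2 untreated libraries), then EIF3M with 485 ± 50.4 and EIF3E with 328 ± 47.2, and the untreated ranges of these neighbours did not overlap. A middle set of EIF3D, EIF3G, EIF3H, EIF3F, EIF3C, EIF3B and EIF3CL lay between 203 and 269.9 RPKM. EIF3J at 129 ± 16.9 and EIF3A, the largest subunit, at 124 ± 7.43 RPKM were lowest and overlapped each other. Of the 11 neighbouring pairs of eIF3 subunits, 6 overlapped. EIF3C and EIF3CL are near-identical genes, with 99.5% of the 28-nt windows of the EIF3C coding sequence also present in EIF3CL, and each took close to equal shares of their joint reads (EIF3CL had 49.6%, 49.6% and 51.2%). Their summed density was 409 RPKM in untreated cells, between the densities of EIF3M and EIF3E.

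The exchange factor eIF2B was less densely occupied than its substrate. EIF2B1, the alpha subunit, had 92.0 ± 7.38 RPKM, EIF2B3 73.9 ± 0.304, EIF2B2 57.2 ± 0.0752, EIF2B4 38.3 ± 4.46 and EIF2B5, the catalytic epsilon subunit, 24.5 ± 1.46 (SD, n = 2), and no neighbours among the 5 overlapped in the untreated libraries. In eIF2, EIF2S1 (alpha) had 263 ± 43.5 RPKM and EIF2S3 (gamma) 361 ± 3.70. EIF2S3B is a copy of EIF2S3 with 57.0% of its 28-nt windows in common with it and 159 ± 6.40 RPKM, so reads of the gamma subunit may be divided between both genes. The only eIF2 kinase among the members, EIF2AK2 (PKR, which is activated by double-stranded RNA), had 77.5 ± 3.89 RPKM.

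With G418, no member passed the test of CDS reads in either direction (0 of 47 higher and 0 of 47 lower, edgeR quasi-likelihood test, Benjamini-Hochberg adjustment over 8480 transcripts, threshold 0.05). Over all transcripts tested 2.23% passed as higher and 0.366% as lower. At an unadjusted p under 0.05 stood 6 of the 47 members (12.8%) against 13.2% of all transcripts, and DESeq2 called 0 members with 2 at an unadjusted p under 0.05. On the RPM scale the median log2 change was 0.02 for the members and 0.10 for all transcripts, and with TMM or DESeq2 size factors the members' median turned to -0.08 or -0.09 while that of all transcripts went to 0.00 or -0.01. Relative to the median of all transcripts the members stood at -0.08 under each of these 3 scalings, and 15 of 47 lay above that median. The same rescaling changed the split of calls over all transcripts from 189 higher and 31 lower to 103 and 35 with TMM or 94 and 30 with DESeq2 size factors. The RPM of the G418 library lay above both untreated values for 20 of 47 members (47.6% of all transcripts), below both for 15 of 47 (25.3% of all transcripts) and between them for 12. CDS reads count ribosomes on an mRNA, so more mRNA, more initiation and slower elongation cannot be told apart here.

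**Figure D2:**
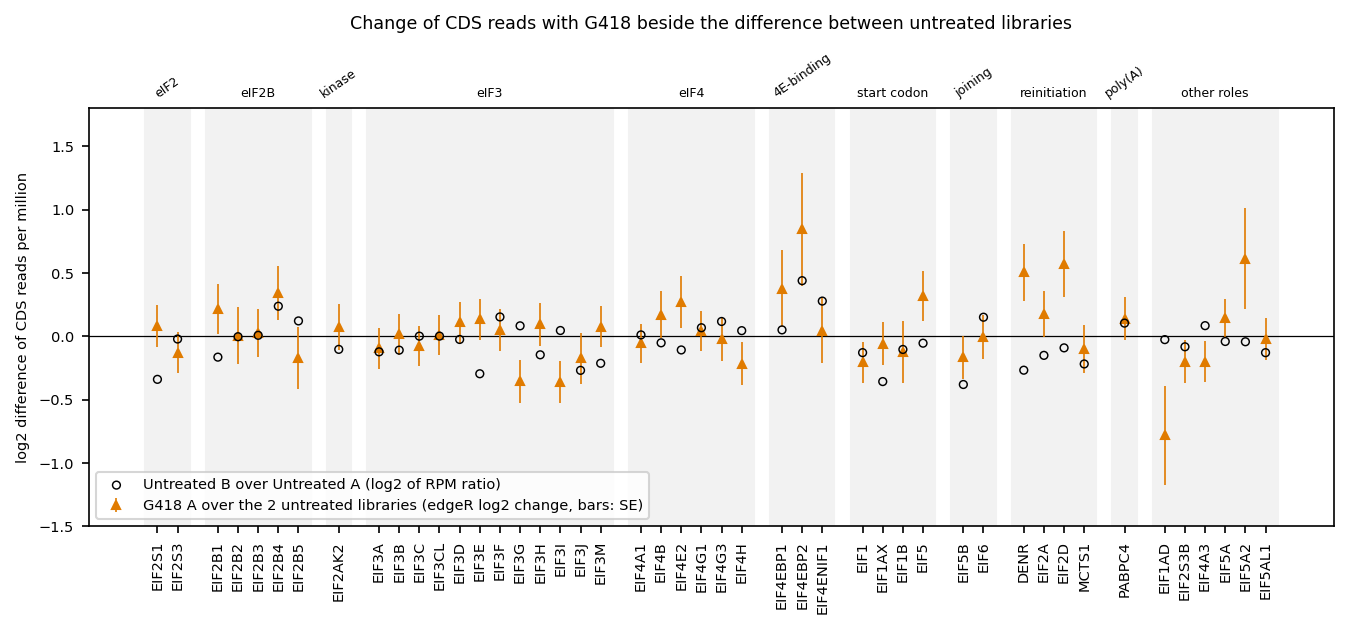
For each of 46 members by role, the orange triangle is the edgeR log2 change of CDS reads in G418 A over the 2 untreated libraries (bars, SE) and the open circle is the log2 ratio of Untreated B to Untreated A. EIF3I and EIF3G lie lowest in eIF3 at -0.36, and among the widest bars are those of EIF4EBP2 and EIF1AD, which had few reads.

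None of the 3 large groups had a median change beyond 0.10 in either direction under any of these scalings. The median log2 change was 0.03 for the 7 eIF2 and eIF2B subunits, 0.01 for the 12 eIF3 subunits and 0.01 for the 6 eIF4 proteins, all of which fell to between -0.07 and -0.09 with TMM or DESeq2 size factors. The median difference between Untreated B and Untreated A was -0.00, -0.07 and 0.03 for the same groups. As summed RPM, eIF3 had 4923, 4686 and 4703 RPM, eIF4 2774, 2828 and 2751 RPM, and eIF2 with eIF2B 1119, 1061 and 1085 RPM. The G418 sum lay between the untreated sums for eIF3 and for eIF2 with eIF2B, and below both for eIF4.

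Both eIF2 subunits stayed near their untreated values. EIF2S1 had 269, 212 and 254 RPM, so the G418 library fell between the controls (log2 change 0.08 ± 0.17 SE, edgeR adjusted p = 0.918). EIF2S3 had 504, 497 and 457 RPM, with G418 below both (log2 change -0.13 ± 0.16 SE, edgeR adjusted p = 0.835). The kinase EIF2AK2 had 130.3, 121 and 132 RPM, with G418 just above both (log2 change 0.07 ± 0.18 SE, edgeR adjusted p = 0.937). The sign for EIF2S1 and EIF2AK2 turned negative with TMM or DESeq2 size factors.

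The eIF2B subunits had changes of both signs, none past the test, and which of them was farthest from 0 depended on the scaling and on the control. EIF2B4 (delta) had 54.1, 63.8 and 75.0 RPM, G418 being above both controls that themselves differed by 0.24 on the log2 scale (log2 change 0.34 ± 0.22 SE, edgeR adjusted p = 0.524). EIF2B1 had 86.0, 76.8 and 94.4 RPM, also above both (log2 change 0.22 ± 0.20 SE; without Untreated A 0.30, against 0.23 for EIF2B4). EIF2B5 had 50.0, 54.4 and 46.4 RPM, below both (log2 change -0.17 ± 0.24 SE; with TMM -0.27, against 0.25 for EIF2B4). EIF2B2 with 58.6, 58.5 and 58.8 RPM and EIF2B3 with 97.7, 98.2 and 99.8 RPM were nearly level over the 3 libraries, and their small positive changes of 0.01 and 0.03 turned to between -0.07 and -0.10 under the other scalings.

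Of the 4 factors of alternative tRNA delivery and reinitiation, 3 had a higher CDS RPM with G418 than in either control, without passing the test. DENR, which forms a heterodimer with MCTS1 that removes tRNA from post-termination small subunits and serves reinitiation, had 54.5, 45.3 and 70.7 RPM (log2 change 0.51 ± 0.23 SE, edgeR adjusted p = 0.271). EIF2D, related in structure to that heterodimer, had 34.8, 32.7 and 50.2 RPM (log2 change 0.57 ± 0.26 SE, edgeR adjusted p = 0.289). In both genes the G418 value stood above the controls by more than the controls differed. EIF2A, which can deliver initiator tRNA without eIF2, had 121, 109 and 130.4 RPM (log2 change 0.18 ± 0.18 SE), and MCTS1 had 116, 100.1 and 101 RPM, between the controls (log2 change -0.10 ± 0.19 SE). The sign for MCTS1 depended on the control, the change being 0.01 without Untreated A and -0.20 without Untreated B.

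In eIF3 the lowest changes were those of EIF3I and EIF3G, which sit together in the module near the mRNA entry channel. EIF3I had 503, 519.9 and 399 RPM (log2 change -0.36 ± 0.16 SE, edgeR adjusted p = 0.289). EIF3G had 242, 256 and 195 RPM (log2 change -0.36 ± 0.17 SE, edgeR adjusted p = 0.335). In both, G418 was below controls that differed by no more than 0.08 on the log2 scale. The highest were EIF3E with 471, 384 and 469 RPM (log2 change 0.13 ± 0.16 SE), between its controls, and the cap-binding subunit EIF3D with 439, 432 and 470.3 RPM, above both (log2 change 0.11 ± 0.16 SE).

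In eIF4 the changes ran from -0.21 to 0.27. EIF4H, which stimulates the helicase, had 222, 229 and 195 RPM (log2 change -0.21 ± 0.17 SE, edgeR adjusted p = 0.681), and EIF4A1 1613, 1626 and 1558 RPM (log2 change -0.06 ± 0.15 SE), both with G418 below the controls. EIF4E2, a cap-binding protein that acts in repression, had 73.1, 67.8 and 84.9 RPM (log2 change 0.27 ± 0.21 SE, edgeR adjusted p = 0.654), and the helicase cofactor EIF4B 113, 109 and 125 RPM (log2 change 0.17 ± 0.19 SE), both with G418 above the controls. EIF4G1 and EIF4G3, the scaffolds, changed by 0.04 and -0.02.

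Outside these groups, 5 members were singled out after their values were seen, 4 of which had fewer than 250 reads in every library. EIF4EBP2, an inhibitor of eIF4E, had 41, 90 and 108 reads, or 7.0, 9.50 and 15 RPM (log2 change 0.85 ± 0.44 SE, edgeR adjusted p = 0.399), while the controls differed by 0.44. EIF1AD, a nuclear protein with an eIF1A-like domain, had 117, 186 and 83 reads, or 19.98, 19.6 and 11.5 RPM (log2 change -0.78 ± 0.39 SE, edgeR adjusted p = 0.356), with near-equal controls. EIF5, the GTPase-activating protein of eIF2, had 80.9, 78.0 and 99.1 RPM (log2 change 0.32 ± 0.20 SE, edgeR adjusted p = 0.511), above controls that differed by -0.05. EIF5A2, a paralog of EIF5A, and EIF4EBP1, the best known inhibitor of eIF4E, had log2 changes of 0.61 ± 0.40 SE and 0.38 ± 0.30 SE (edgeR adjusted p = 0.546 and 0.687), G418 being above both controls in each.

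Among 35 other genes of the initiation pathway chosen from lists of regulators, 28 were listed in all 3 tables and 3 rose, with none lower (2.23% and 0.366% of all transcripts). DNAJC3 (p58IPK, an inhibitor of eIF2 kinases) had 64.0, 54.0 and 94.7 RPM (log2 change 0.69 ± 0.21 SE, edgeR adjusted p = 0.0412). MKNK2, a kinase of eIF4E, had 9.39, 18 and 31.9 RPM (log2 change 1.19 ± 0.33 SE, edgeR adjusted p = 0.0227), and here Untreated B was above Untreated A by 0.94, the change being 0.82 without Untreated A and 1.76 without Untreated B. RHEB, the GTPase that activates mTORC1, had 37.9, 38.5 and 72.1 RPM (log2 change 0.91 ± 0.24 SE, edgeR adjusted p = 0.00976), with near-equal controls. Each was highest in G418. With TMM or DESeq2 size factors DNAJC3 no longer passed (edgeR adjusted p = 0.157 and 0.178), and DESeq2 gave adjusted p = 0.616 for DNAJC3 and 0.346 for RHEB. On the RPM scale and with no test, the median change over the 28 was 0.03, against 0.10 for all transcripts. By list it was 0.41 over 7 genes of the eIF2 cycle and stress response, 0.35 over 8 of mTORC1, 0.02 over 9 cap and poly(A) regulators and -0.09 over 4 of helicases and recycling. The other genes of the eIF2 cycle and stress list did not pass. ATF4, the transcription factor of the integrated stress response, had 22.9, 20.9 and 29.0 RPM (edgeR adjusted p = 0.657), DDIT3 2.39, 2.64 and 9.01 RPM (edgeR adjusted p = 0.0671) and PPP1R15A, the phosphatase subunit that removes phosphate from eIF2, 14.9, 11.1 and 23 RPM (edgeR adjusted p = 0.265), each above both controls. BZW1 and BZW2, which resemble eIF5 and compete with it, had 451, 397 and 336 RPM (edgeR adjusted p = 0.347) and 118, 95.2 and 89.2 RPM (edgeR adjusted p = 0.657), below both, and GCN1 had 198, 239 and 209 RPM, between them.

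Reads in the 5′UTR were then compared with the CDS reads of the same transcript, since upstream open reading frames (uORFs) in the mRNAs of some of these factors are known to be translated. In all, 5′UTR reads amounted to 1.52, 1.54 and 1.37 per 100 CDS reads for the members, and to 2.40, 2.5 and 2.23 for all transcripts. Of the 18 members with a mean of at least 5 such reads, 0 were called higher and 0 lower by edgeR (background 0.029% in each direction over 3446 transcripts), and 3 of 18 had an unadjusted p under 0.05 against 6.76% of all. G418 lay above both controls in 6 of 18 members (23.8% of all transcripts) and below both in 7 of 18 (44.8% of all transcripts).

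In untreated cells EIF5 had the most 5′UTR reads per CDS read among the 18, with no correction for the length of the 5′UTR. Its 5′UTR of 527 counted nt held 296, 536 and 308 reads, or 62.4, 72.5 and 43.1 per 100 CDS reads, so that G418 lay below both controls (log2 change -0.65 ± 0.13 SE, edgeR adjusted p = 0.511). In the GENCODE v44 transcript this 5′UTR has 5 upstream ATG codons, 4 of which open a reading frame that closes before the start codon, and the one 122 nt upstream runs into the CDS in another frame. Their surroundings, with the ATG in capitals and the count of nt from each to the start codon in the name, are shown because they are the codons where those upstream reads could begin, although the tables give no position within the 5′UTR.
EIF5 upstream 441: ctggggATGgggc
EIF5 upstream 349: gtagccATGggga
EIF5 upstream 256: tgcttaATGgcaa
EIF5 upstream 122: tttttcATGtcag
EIF5 upstream 90: tcgtttATGtcat
EIF5 main start: taagccaaaATGtctgtc
The uORF lengths, counted in codons before the stop, were 29, 12, 29, 61 and 22 from the farthest to the nearest.

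DENR and EIF5A, like EIF5, were among the 7 of 18 members with fewer 5′UTR reads per CDS read in G418 than in either control. The others were EIF4EBP2, EIF2B2, EIF4A3 and MCTS1. Their log2 changes were -1.96, -1.60, -1.56 and -0.73, with at most 24 5′UTR reads in a library. The median log2 change of this ratio was -0.34 over all 3446 transcripts tested and -0.11 over the 18 members, and the values of single members include that general shift. For DENR they numbered 69, 68 and 27, or 21.6, 15.9 and 5.29 per 100 CDS reads, below both controls (log2 change -1.81 ± 0.50 SE, edgeR adjusted p = 0.584). The transcript counted for DENR has 1 upstream ATG, 73 nt before the start codon, with a closed frame of 7 codons.
DENR upstream 73: agttgcATGtgtt
For EIF5A, whose 5′UTR has no ATG in the transcript counted, the reads numbered 239, 393 and 209, or 4.39, 4.59 and 2.86 per 100 CDS reads, again below both (log2 change -0.65 ± 0.14 SE, adjusted p = 0.511). EIF1AD went the other way with 40, 43 and 51 reads, or 34.2, 23.1 and 61.4 per 100 (log2 change 1.11 ± 0.50 SE, adjusted p = 0.682). EIF5, EIF5A and EIF1AD were picked for these 5′UTR values after they were seen. EIF2S1, with 15 upstream ATG codons in a 5′UTR of 754 counted nt, held only 0, 0 and 4 reads there.

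**Figure D3:**
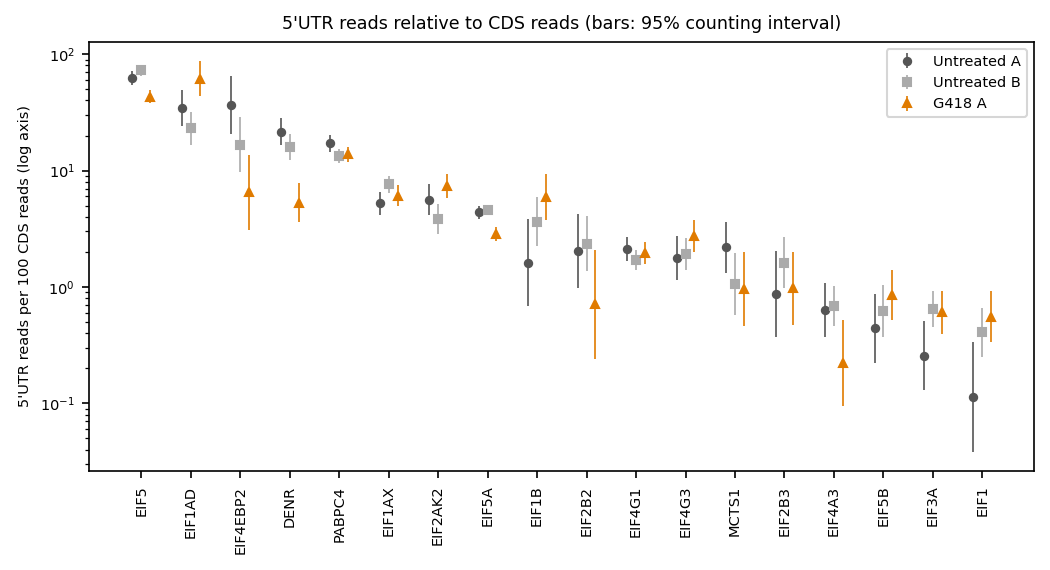
5′UTR reads per 100 CDS reads on a log axis for the 18 members tested, ordered by the untreated mean, with 95% Wilson counting intervals and a marker for each of the 3 libraries. EIF5 is highest in the untreated libraries at 62.4 and 72.5, and EIF5, DENR and EIF5A are among the 7 members with their lowest value in G418 A.

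Stop codon readthrough was measured by the ribosome readthrough score (RRTS), the read density between the normal termination codon (NTC) and the next in-frame stop codon (3′TC) divided by the CDS density, here as a percent. The length of this region includes the 3′TC itself. For EIF1AD and EIF2B4, whose 3′UTR has no in-frame stop codon, the region is the listed 3′UTR. Of the 47 members, 44 had enough CDS reads and a region of at least 18 nt, as had 5684 transcripts in all, and the least covered of the 44 had a mean of 129 CDS reads. Summed over the 44 members, 38, 37 and 746 reads lay in these regions, for a pooled RRTS of 1.05%, 0.654% and 17.2%, the G418 value being 20.2 times the untreated mean. The exact 95% Poisson interval of the G418 value was 16.0% to 18.5%, which covers counting error only. All transcripts of the set had 1.57%, 1.25% and 21.3%. RRTS in G418 was above both controls in 34 of the 44 members (77.3%, against 72% of all transcripts) and above 0 in 35 (75.8% of all transcripts).

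**Figure D4:**
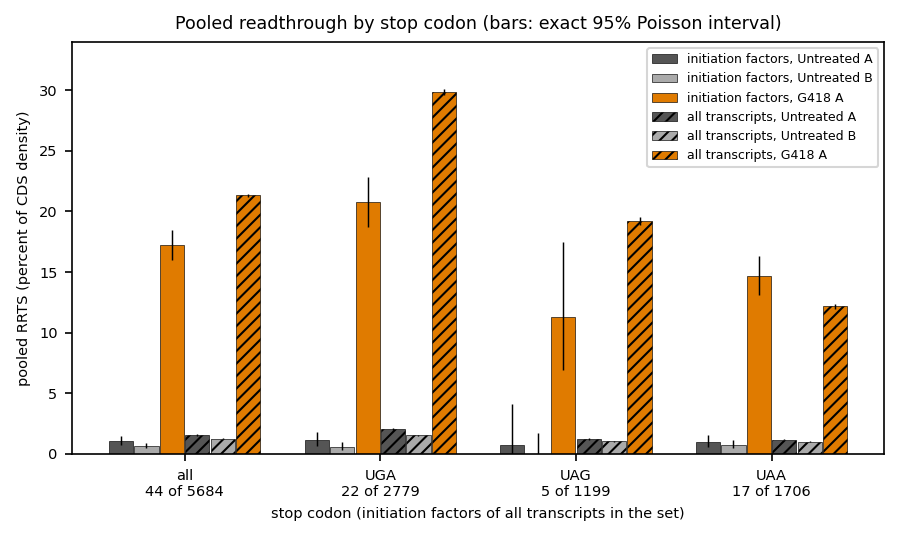
Pooled RRTS in percent of the CDS density for the members (plain bars) and all transcripts (hatched bars), overall and by stop codon, in the 3 libraries, with exact 95% Poisson intervals and the number of transcripts under each set. In G418 A the members lie below all transcripts overall (17.2% against 21.3%) and at UGA (20.7% against 29.9%), and above them at UAA (14.7% against 12.2%). These directions did not hold for every base after the stop codon.

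By stop codon, the 22 members ending in UGA pooled to 1.13%, 0.575% and 20.7%, against 29.9% with G418 for all 2779 transcripts ending in UGA. The 17 members ending in UAA pooled to 1.0%, 0.775% and 14.7%, against 12.2% for all 1706, and the 5 ending in UAG to 0.741%, 0% and 11.3%, against 19.2% for all 1199. Within UAG, the 3 members ending in UAGA pooled to 19.2% with G418, against 20.4% for all 351 such transcripts. The 2 ending in UAGG pooled to 0%, against 16.6% for all 338. Those 2 are DENR and EIF2S3B, counted at a stop codon other than that of the canonical transcript. A comparison of these pooled values was not tested, and single members weigh in them by their CDS reads: 23 of the 44 members (52.3%) were above the median RRTS of transcripts with their own 4-nt stop signal. Leaving out the copies EIF2S3B, EIF5AL1 and EIF3CL raised the members' pooled G418 value to 19.7%.

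The 7 eIF2 and eIF2B subunits had 0, 0 and 94 reads and a pooled RRTS of 41.8% with G418 (95% Poisson interval 33.8% to 51.1%), with 5 of 7 above 0. All transcripts of the set had 21.3%. Of the 94 reads, EIF2B2 held 30, EIF2S1 and EIF2S3 20 each, EIF2B1 14 and EIF2B3 10. The CDS reads of EIF2S3 may be divided with EIF2S3B. For the 12 eIF3 subunits 8, 13 and 173 reads gave 0.971%, 1.01% and 18.2%, and for the 6 eIF4 proteins 0, 2 and 116 reads gave 0%, 0.169% and 13.7%. EIF2AK2 had 0, 0 and 3 reads, an RRTS of 21.3% with an interval of 4.39% to 62.1%. The groups hold few transcripts with unlike stop signals and region lengths, and the difference between them was not tested.

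The stop codons that carry these values are shown with 9 bases of coding sequence before them, and with the stop codon and the base after it in capitals, T standing for U. The transcripts are those of GENCODE v44 on hg38, in which 43 of 46 members looked up were matched. The first 4 had the highest RRTS with G418 among members with at least 300 mean CDS reads, apart from a gene on a chromosome whose sequence is not printed, and the next 3 are the members that passed the readthrough test.
EIF2B2: catgttttaTGACcgaccacacgtgtccta
EIF2S3: gatgatgacTGAAgaataccagttaaataa
EIF3F: gtaaacctgTGAAtggaccccaagcagtac
EIF2B1: ctctatctgTAACctgtgagccctttcctg
EIF4A1: gacctcatcTGAGgggctgtcctgccaccc
EIF6: agcctcaccTGAGtcaccttccaagttgtt
EIF5A: atggcaaaaTAACtggctcccagggtggcg
In order, these stop codons lie at chr14:75009186-75009188 on the plus strand (exon 8 of 8), chrX:24076783-24076785 plus (exon 12 of 12), chr11:7996020-7996022 plus (exon 8 of 8), chr12:123621756-123621758 minus (exon 9 of 9), chr17:7578484-7578486 plus (exon 11 of 11), chr20:35279197-35279199 minus (exon 7 of 7) and chr17:7311638-7311640 plus (exon 5 of 6).

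EIF4A1, EIF6 and EIF5A rose in readthrough reads relative to their CDS density (edgeR, adjusted over 3029 transcripts with at least 5 such reads). The 3 called are 6.82% of the 44 members, against 5.08% of the 5684 transcripts of the set. EIF4A1 had 0, 0 and 57 reads, an RRTS of 13.4% with G418 (interval 10.1% to 17.3%), at least 42.0-fold higher than 3 reads over both controls would give (edgeR adjusted p = 0.00649). EIF6, which keeps free large subunits from joining, had 4, 0 and 96 reads and an RRTS of 1.31%, 0% and 24.4% (edgeR adjusted p = 0.00948). EIF5A had 2, 6 and 113 reads and an RRTS of 0.441%, 0.840% and 18.6% (edgeR adjusted p = 0.0117). In all 3 the G418 value stood far above both controls. At an unadjusted p under 0.05 stood 11 of the 44 members, against 12.7% of all transcripts of the set. These shares are not matched for depth. The 5 reads needed for the test were reached by 32 of the 44 members and by 3029 of the 5684 transcripts. Requiring a mean of at least 500 CDS reads gave 6 calls among 35 members, against 14% of 2408 transcripts, the additional ones being EIF3F, EIF4G1 and EIF3I. Requiring a region of at least 60 nt left 14 members, of which only EIF6 was called, against 7.17% of 3124 transcripts.

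The highest scores belonged to members with fewer reads. EIF2B2, which ends in UGA followed by C, had 0, 0 and 30 reads over 54 counted nt, an RRTS of 134% with G418, so density past the stop codon was as high as in the CDS within its interval of 90.4% to 191% (at least 21.2-fold higher than 3 reads over both controls, edgeR adjusted p = 0.0716). The median of all 561 transcripts ending in UGAC was 38.7%, and 91.1% of them had a lower score than EIF2B2. EIF2S3 had 0, 0 and 20 reads over 12 counted nt and 70.1% (42.8% to 108%). EIF3F had 0, 0 and 33 reads over 33 counted nt and 63.6% (43.7% to 89.3%), and EIF3E 0, 0 and 23 reads over 15 counted nt and 59.1% (37.5% to 88.7%). These 3 end in UGA followed by A, where the median of all transcripts was 29.8%. EIF2B1 had 0, 0 and 14 reads and 50.5% (27.6% to 84.8%), against a median of 18.3% for UAAC. None of the 5 had a readthrough read in either control. The medians by stop signal are not matched for the length of the region. Over all transcripts the pooled G418 RRTS was 31.5% with regions of 18 to 30 nt and 19.4% with regions over 60 nt. For the members these values were 25.9% and 13.1%. The medians over all transcripts were 16.3% and 18.4% in the same order. For EIF2S3, if the CDS reads listed for EIF2S3B are credited to it as well, the G418 score becomes 49.5%.

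**Figure D5:**
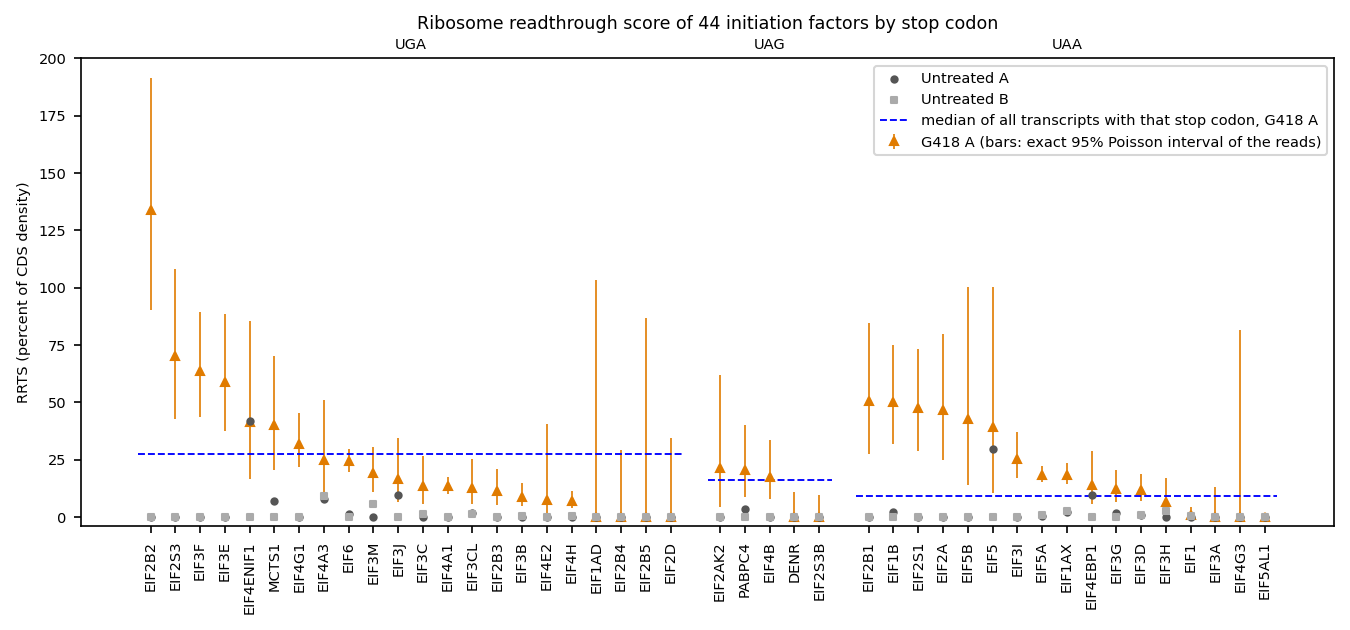
RRTS in percent of the CDS density for the 44 members in the set, by stop codon, with G418 A as triangles (bars, exact 95% Poisson interval of the reads), Untreated A and Untreated B as small points, and the G418 A median of all transcripts with that stop codon as a dashed line. EIF2B2 stands highest at 134%, and members at 0 with a long bar had few reads expected.

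At the other end, 9 of the 44 members had no readthrough read in G418, and none of these 9 had one in a control either. For most the depth cannot show a difference: the reads expected at the CDS density had a median of 12.7 over the 9, against 50.9 over the other members. EIF2B4 had 0 of 12.7 expected reads, which allows an RRTS of up to 23.7% by the 3-read floor, and EIF2D 0 of 10.7, which allows up to 28%, although both end in UGAC. The 36 counted nt of EIF2B4 come from a 3′UTR without an in-frame stop codon, so its region differs from that of EIF2D. EIF2B5 had 0 of 4.24 expected reads and EIF4G3 0 of 4.52. EIF3A had 0 of 27.7 expected and 3457 CDS reads, which allows up to 10.8%. DENR had 0 of 34 expected reads (up to 8.82%), EIF2S3B 0 of 39.0 (up to 7.70%) and EIF5AL1 0 of 477 (up to 0.629%). Those limits hold only if the CDS reads came from mRNAs that end at the counted stop codon, which is uncertain here. DENR and EIF2S3B were counted at a stop codon that is not the canonical one. EIF2S3B and EIF5AL1 have 57.0% and 78.3% of their 28-nt windows in common with EIF2S3 and EIF5A. Of the 112 transcripts in the set with at least as many expected reads as EIF5AL1, 7 had none.

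For DENR and EIF2S3B, as for EIF1 and EIF4E2, the stop codon counted was not that of the transcript marked as canonical in GENCODE v44. Their RRTS with G418 was 0%, 0%, 0.819% and 7.31%, and pooled over the 4 it was 0.958% (0.116% to 3.46%), against 18.1% (16.8% to 19.5%) over the 37 members whose stop codon is the canonical one. This split was chosen after the values were seen and was not tested.

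EIF5A and its intronless copy EIF5AL1 allow a direct look at how reads were credited. Their stop codon surroundings are shown because the difference between them is small.
EIF5A: atggcaaaaTAACtggctcccagggtggcg
EIF5AL1: atggcaaaaTAACtggctcccaaggtggca
Counted from 1 at the first base shown, the copy differs by G23A and G30A. EIF5AL1, with its stop codon at chr10:79513112-79513114 on the plus strand (exon 1 of 1), took 2037, 3015 and 2369 CDS reads and 0, 0 and 0 readthrough reads, beside the 2, 6 and 113 of EIF5A. Of the 28-nt windows of the EIF5A coding sequence, 78.3% occur in EIF5AL1 too, so the CDS reads of either gene are uncertain. With the CDS reads of both credited to EIF5A, its G418 score is 14%.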

How the data were processed

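Ribosome-protected fragments of 28 to 35 nt were profiled in 3 libraries, 2 untreated and 1 given G418. Per the study's methods, the authors collapsed duplicates by molecular identifiers, trimmed adapters, discarded noncoding RNA reads, aligned the rest to hg38 with STAR (GENCODE 30 annotation), kept primary alignments of multimapping reads and assigned each read to the ribosomal A site on 1 transcript per gene. The submitters' processing notes also name CASAVA 1.8. The deposited tables hold RPM values (normalised to the reads assigned to transcripts), RPKM values, RRTS ratios and whole-number counts of each region. The CDS leaves out its first 18 and last 15 nt, and the readthrough region leaves out 6 nt after the stop codon.

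RPM values were whole multiples of 1 read in every library (tolerance 0.02 reads), so the reads behind them were recovered and used as counts. The whole-number CDS counts deposited beside them were 1 lower for 9080, 283 and 72 transcripts and served as an alternative. This departs from testing the deposited counts directly. RPKM and the RRTS of single transcripts were taken from the authors' columns. Pooled RRTS values, intervals and ranks within a stop signal were computed from the recovered reads, since the authors' ratio carries no counting error.

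Tests used edgeR 4.0.16 (quasi-likelihood, two-sided, R 4.3.3) over all transcripts with treatment as the term, 1 residual degree of freedom and Benjamini-Hochberg adjustment at 0.05, with the read total of each library as its size. The CDS test needed a mean of 20 CDS reads. The readthrough test had the reads expected at the CDS density as offset and needed 5 readthrough reads over the 3 libraries, a mean of 128 CDS reads and a region of 18 nt. The 5′UTR test had the CDS reads as offset and needed a mean of 5 5′UTR reads. DESeq2 1.42.0, TMM scaling and DESeq2 size factors were alternatives. Poisson intervals are exact and shares have Wilson intervals (SciPy 1.17.1), all at 95% and for counting error only. Scripts were tested on simulated data. Sequences came from GENCODE v44 and the genome of the same build.

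The members and gene lists were chosen with earlier results of these data known. Named by rule were all members of eIF2, eIF2B, the eIF2 kinases and the reinitiation group, the 2 highest and 2 lowest CDS changes in eIF3 and eIF4, members past a test's threshold, the 5 highest and 5 lowest RRTS among members with at least 300 mean CDS reads, and other pathway genes past the CDS threshold.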

Additional observations from a re-analysis of the deposited data

Results flagged for a closer look

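Reads in the 3′UTR beyond the first in-frame stop codon belong to no comparison above, and 7 of 46 described members (15.2%) had at least 20 of them with G418 at 3 or more times the RPM of the higher untreated library, against 424 of 8812 transcripts (4.81%). These 2 shares are not matched for depth, since a minimum of 20 reads is more easily met by densely read transcripts. The median CDS density in G418 A was 138 RPKM for the members and 21.4 RPKM for all transcripts. EIF2S3 had 10 and 11 reads in the untreated libraries A and B and 104 with G418 over 2007 nt. EIF3B had 5, 5 and 59 reads over 376 nt, and EIF3J 1, 1 and 54 over 1597 nt. EIF2B2 had 0, 0 and 43 reads over 3118 nt, and EIF5A 5, 1 and 35 over 392 nt. EIF4A3, a helicase of the exon junction complex, had 2, 5 and 34 reads over 170 nt, and MCTS1 2, 3 and 25 over 8868 nt. The G418 level chose these 7, so their lying above both controls is a description only. Reading frame is not given in the tables, and the source of these reads was not tested.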

How the results depend on the processing

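No paired analysis was possible because the untreated and G418 groups share only 1 replicate letter. The count of members called stayed at 0 in either direction in the CDS test and in the 5′UTR test under every alternative run. Over all transcripts, 103 rose with TMM scaling, 94 with DESeq2 size factors and 8 by the DESeq2 test, against 189, and 13 fell by the DESeq2 test against 31. With TMM and DESeq2 size factors the median log2 changes were -0.070 and -0.079 for eIF2 with eIF2B, -0.083 and -0.092 for eIF3, -0.087 and -0.095 for eIF4, -0.082 and -0.091 for all members, and 0.00057 and -0.0075 for all transcripts. Leaving out 1 untreated library at a time gave medians of 0.0049 to 0.023 for eIF2 with eIF2B and for all members, -0.031 to -0.0053 for eIF3, -0.026 to 0.058 for eIF4 and 0.071 to 0.14 for all transcripts. With TMM, DESeq2 size factors and the DESeq2 test, in that order, uncalled changes turned negative for EIF2AK2 (-0.026, -0.034, -0.035), EIF2B2 (-0.091, -0.099, -0.099), EIF2B3 (-0.070, -0.079, -0.079) and EIF2S1 (-0.018, -0.027, -0.028). Without 1 untreated library, the sign also depended on which one for each of the 12 members that lay between the controls. Among them were EIF2S1 (-0.08 to 0.26), EIF3E (-0.01 to 0.29) and MCTS1 (-0.20 to 0.01). The cause was not tested.

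Members called in readthrough numbered 6 of 35 with at least 500 mean CDS reads (338 of 2408 transcripts, 14%) and 1 of 14 with a region of at least 60 nt (224 of 3124, 7.17%), against 3 of 44 (289 of 5684). Their pooled G418 RRTS was 14.5% with regions of at least 60 nt and 19.7% without the near-identical copies, an alternative chosen after seeing the data, against 17.2%. Without the 4 members with another stop codon, also chosen afterwards, it was 18%. Leaving out 1 untreated library gave an untreated RRTS of 0.654% to 1.05% and a ratio of G418 to untreated of 16.4 to 26.3. DESeq2 gave no adjusted p for MKNK2. With 1 library, G418 gives no spread of its own.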
